A study of Mus musculus with 3 samples.

Results

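The genes described here carry out DNA replication or supply its nucleotides: 40 named genes that cover origin licensing, the replicative helicase, the polymerases and primase, the sliding clamp and its loader, single-strand binding, the flap nuclease and ligase, and deoxynucleotide supply. A gene was found through the UniGene clusters (groups of cDNA sequences taken as 1 gene) whose short tags match its transcripts exactly, and a gene with several clusters is represented by the one with the most tags. Of the 40 genes 38 were listed in at least 1 library and 34 had the 15 or more tags over 3 libraries needed for a test, out of 13812 clusters tested and 20595 listed. Lig1, the ligase that seals lagging-strand fragments, and Prim2, the large primase subunit, were listed in no library. Below the minimum were Pola2, with 2, 0 and 2 tags at days 0, 1 and 2, Rfc2 with 0, 0 and 4, Rfc3 with 3, 0 and 0, and Rpa3 with 6, 0 and 6. The smallest copy number any table lists is 2, so a listing of 0 does not show that a transcript was missing.

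The tissue was whole skin of male C57BL/6 mice aged 2 months, depilated 9 days before the injection to bring the hair follicles into growth. Day 0 skin had no drug, and the other skins were taken 1 day and 2 days after intraperitoneal cyclophosphamide, a prodrug whose product alkylates DNA. The design text gives the dose as 150 mg/kg, whereas the sample labels write the unit as mg/km. Each group was 1 library, how many mice each came from is not stated in the labels, and the drug cannot be told apart from 1 or 2 more days of hair growth. The tables held 2731787, 2859653 and 2636804 tags. The 5 basal epidermis markers, Krt5 and Krt14 among them, were all listed and summed to 5405.9, 5624.1 and 6309.0 tags per 1000000 (scaled as explained next). Of 6 T cell markers Cd3e, Cd3g and Cd8a were not listed in any library, and Cd68 and Cd14 of the 8 macrophage markers were not listed either.

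Replication begins when the origin recognition complex, Cdc6 and Cdt1 load rings of MCM proteins on origins. Cdc45 and the GINS complex then join the rings to make the active helicase, primase and polymerase alpha start each strand, and polymerases epsilon and delta extend them, held by the PCNA clamp. Most of these genes are switched on by E2F transcription factors as a cell enters S phase, and in skin during hair growth the hair matrix and the basal epidermis are the main dividing compartments.

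Levels are tags per 1000000 (CPM), with library sizes scaled by edgeR's TMM factors. Ratios are on the log2 scale with a pseudocount of 0.5 tags. The 95% intervals beside them are exact and cover counting error only. A gene was called when a two-sided exact binomial test of the tags of 2 libraries, Benjamini-Hochberg adjusted over all 13812 clusters, reached 0.001 and its ratio reached 2-fold. That test compares 2 libraries and not the conditions, and no difference has a replicate check.

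The replication genes had a median ratio of -0.01 at day 1 and 0.20 at day 2 against day 0. Their summed ratio at day 2 was 0.18 (0.12 to 0.24). The counts of calls among 34 genes are too small to set them apart from all clusters. At day 1, 0 of 34 were called higher, against 1.44% of all clusters, and 0 were called lower, against 1.35%. At an unadjusted p under 0.05 in the same test there were 8 of 34 (6 higher and 2 lower), beside 30.8% of all clusters. Called by edgeR's exact test with an assumed variation of 0.2 between animals were 0. The share of all clusters called by that test is not given here, so this count shows nothing particular to these genes. The median ratio was -0.01, with quartiles of -0.32 and 0.22, beside a median of -0.02 and quartiles of -0.43 and 0.37 for all clusters. At day 2, 1 of 34 was called higher against day 0 (3.41% of all clusters) and 0 were called lower (3.03%), with a median of 0.20 and quartiles of -0.12 and 0.40 beside 0.01, -0.44 and 0.45 for all clusters. At an unadjusted p under 0.05 there were then 10 of 34 (6 higher and 4 lower), beside 36.3% of all clusters. Of the 34 ratios 17 were positive at day 1 and 21 at day 2. All 34 lay within 2-fold of day 0 at day 1 and 31 did at day 2, where 87.4% and 82.7% of all clusters lay within it.

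**Figure D1:**
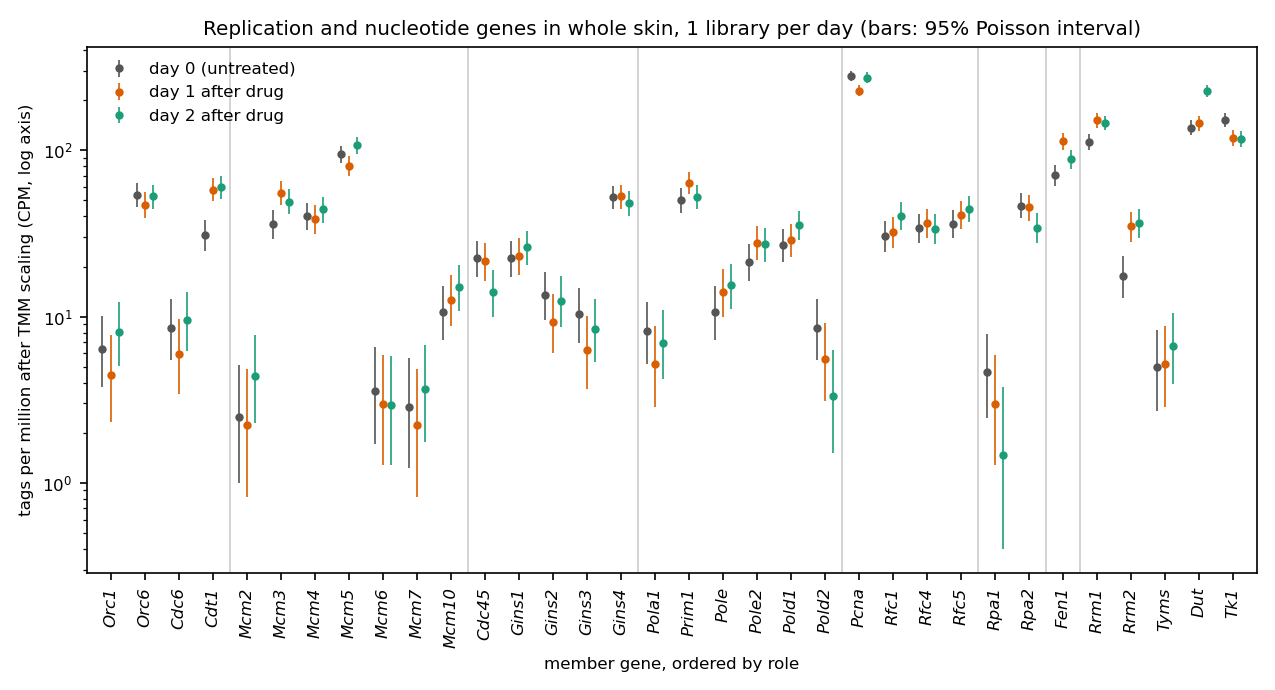
Level of each of the 34 tested genes (CPM, log axis) at day 0, day 1 and day 2, ordered by role, with points for single libraries and bars for the 95% Poisson interval of the count. Rrm2, Cdt1 and Dut stand higher at day 2 than at day 0, while the intervals of Mcm2, Mcm6, Mcm7 and Rpa1 are wide because few tags were counted.

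The gene called was Rrm2, the small subunit of ribonucleotide reductase, which makes deoxynucleotides from ribonucleotides and is itself made mostly in S phase. Rrm2 (chr12:24708241-24714146, GRCm38) had 49 tags at day 0, 94 at day 1 and 100 at day 2, or 17.42, 34.95 and 36.73 CPM. Both treated skins were thus above the untreated one, and they differed little from each other. The ratio was 1.07 (0.57 to 1.60) at day 2 against day 0, and the adjusted p of the exact binomial test was 1.2e-04. At day 1 it was 1.00 (0.49 to 1.53), at adjusted p = 6.7e-04, and lay just under the 2-fold line. With DESeq2 size factors it was 1.01 and was called. At day 2 the call was lost with the assumed variation between animals. Of its tags 93.8% came from a single site in the 3' UTR, 545 bases from the annotated transcript end, shown here because the call rests on it with 47, 85 and 96 copies. The capitals mark the NlaIII site from which the 21-base tag starts.
Rrm2 tag (chr12:24713602-24713622, plus strand): CATGcagggtctacttaacaa

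The partner subunit Rrm1, which carries the catalytic site, had 315, 407 and 400 tags (111.97, 151.33 and 146.93 CPM). Both later days lay above day 0, day 1 slightly the higher, with ratios of 0.43 (0.22 to 0.65) at day 1 and 0.39 (0.18 to 0.61) at day 2. The adjusted p was 6.3e-04 at day 1 and 0.0021 at day 2 in the exact binomial test, both at less than 2-fold.

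Dut, the dUTPase that keeps uracil out of DNA and yields the substrate for thymidylate synthesis, moved at another time. It had 386 tags at day 0, 391 at day 1 and 621 at day 2 (137.21, 145.38 and 228.10 CPM), so that days 0 and 1 lay together and day 2 stood above both. The ratio was 0.08 (-0.12 to 0.29) at day 1, 0.73 (0.55 to 0.92) at day 2 against day 0 and 0.65 (0.46 to 0.84) at day 2 against day 1. The exact binomial test gave adjusted p of 6.2e-14 and 6.4e-11 for the last 2 comparisons, but at 1.66-fold and 1.57-fold neither was called. Nearly all of its tags (99.6%) came from 1 site in the 3' UTR, 1024 bases from the annotated end.
Dut tag (chr2:125257585-125257605, plus strand): CATGcagacttggtaaaaccc

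Tk1, the thymidine kinase of the salvage route, lay on the other side, with 431 tags at day 0 and 318 at each later day (153.20, 118.24 and 116.81 CPM). Its ratios were -0.37 (-0.59 to -0.16) and -0.39 (-0.60 to -0.18), at adjusted p of 0.0037 and 0.0016 in the exact binomial test, and were not called. The tag behind 97.9% of these counts also occurs in the gene Gm6091, so the values of Tk1 cannot be separated from it. Tyms, which makes thymidylate from dUMP, had 14, 14 and 18 tags, too few to show a change of the sizes seen in the other genes of this group. The 5 nucleotide supply genes summed to 424.8, 455.1 and 535.2 CPM.
Tk1 tag (chr11:117816481-117816501, minus strand, coding exon 6 of 7): CATGgagtgcttccgagaagc

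**Figure D2:**
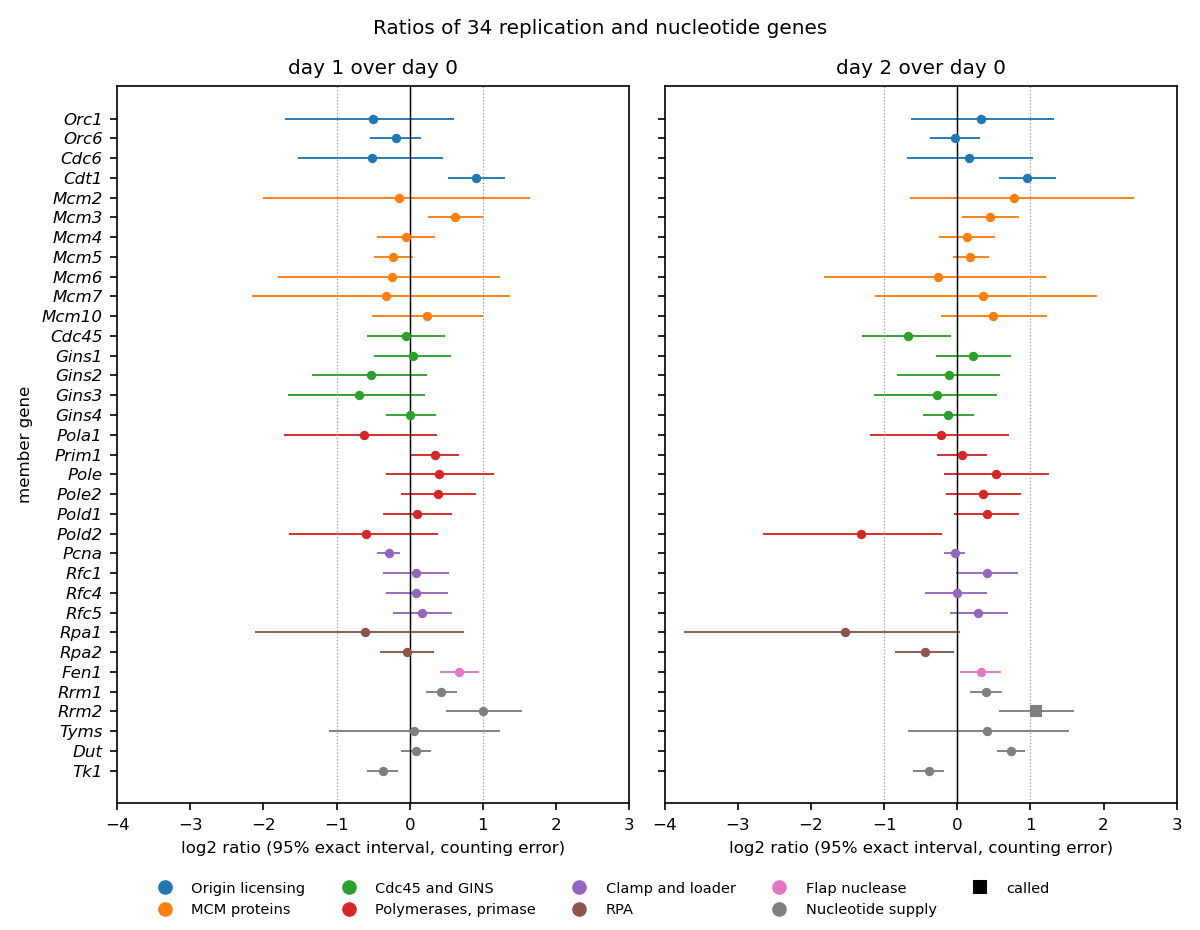
Log2 ratio of each of the 34 genes at day 1 and at day 2 against day 0, coloured by role, with 95% exact intervals for counting error, dotted lines at 2-fold and a square for a called gene. Rrm2 at day 2 (1.07) is the square, and Cdt1 (0.90 and 0.95) lies just inside the 2-fold line on both days.

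Among the licensing factors, Cdt1 had more tags in both treated libraries. Cdt1 brings the MCM ring to the origin and is destroyed once S phase starts. It had 87, 156 and 163 tags (30.93, 58.00 and 59.87 CPM), so days 1 and 2 lay together above day 0. The ratios were 0.90 (0.52 to 1.30) and 0.95 (0.57 to 1.35), at adjusted p = 2.8e-05 and 5.3e-06 in the exact binomial test, at 1.87-fold and 1.93-fold and therefore not called. At a limit of 1.5-fold in place of 2-fold, the genes called higher were Cdt1, Fen1 and Rrm2 at day 1 (4.08% of all clusters pass that limit in that direction) and Cdt1, Rrm2 and Dut at day 2 (5.71%), and none was called lower (3.70% and 6.18%). The Cdt1 tag lies in the 3' UTR 33 bases from the annotated end, is numbered site 7 in the deposited tables, and accounts for 97.8% of the count.
Cdt1 tag (chr8:122573096-122573116, plus strand): CATGtaagatttaaataaaat

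The other licensing factors did not follow Cdt1 in these counts. Orc6, a subunit of the origin recognition complex, had 152, 127 and 144 tags (54.03, 47.22 and 52.89 CPM), with ratios of -0.19 (-0.55 to 0.16) and -0.03 (-0.37 to 0.31). Orc1, the subunit that binds origins with Cdc6, had 18, 12 and 22 tags, and Cdc6, which recruits Cdt1 with its MCM cargo, had 24, 16 and 26. Both were lowest at day 1, at ratios of -0.50 (-1.71 to 0.61) and -0.51 (-1.53 to 0.45), with intervals that span 0.

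No MCM gene was called at either day. Mcm5, a subunit of the helicase ring, had 266, 217 and 292 tags (94.55, 80.68 and 107.26 CPM), lowest at day 1. Its ratios were -0.23 (-0.49 to 0.04) at day 1 and 0.18 (-0.06 to 0.43) at day 2, and 0.41 (0.15 to 0.67) between days 2 and 1. Mcm4, another ring subunit, had 113, 104 and 120 tags, spread over adjacent CATG sites 4 bases apart, and its ratios were -0.05 and 0.13. Mcm10, which helps turn the loaded helicase on, had 30, 34 and 41 tags, at 0.24 (-0.51 to 1.00) and 0.49 (-0.22 to 1.23). The remaining ring subunits were counted at 12 tags or fewer in each library: Mcm2 with 7, 6 and 12, Mcm6 with 10, 8 and 8 and Mcm7 with 8, 6 and 10. For these 3 genes the tag nearest the 3' end of the longest GENCODE coding transcript was listed in no library, so their counts come from sites further upstream. The same held for Rrm2, Dut, Orc6, Rfc5 and Rpa1 among the genes tested.

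Mcm3, the ring subunit with the largest ratio among MCM genes at 20 CPM or more, had 101, 149 and 134 tags (35.90, 55.40 and 49.22 CPM). Its ratio was 0.62 (0.25 to 1.00) at day 1, at adjusted p = 0.0059 in the exact binomial test, and 0.45 (0.07 to 0.84) at day 2. The total joins sites with different ratios. The 3'-most site, 35 bases from the annotated end, had 54, 104 and 98 tags, whereas the site 278 bases from the end had 44, 39 and 29. At the first site the ratios were 1.00 (0.52 to 1.51) and 0.90 (0.41 to 1.41), and at the second -0.11 (-0.77 to 0.55) and -0.55 (-1.28 to 0.15). Counted at the 3'-most site alone, Mcm3 was called higher at day 1. The sites are shown because their ratios lay 1.11 and 1.45 apart, though the intervals of the second site include 0 on both days. Both lie in the 3' UTR in the last exon, on the minus strand.
Mcm3 site 1 tag (chr1:20802982-20803002): CATGctttgtgctttaaaaaa
Mcm3 site 3 tag (chr1:20803225-20803245): CATGatttgagctgtgtttct

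Whether the ratio differed between the main sites of a gene was tested by Fisher's exact test in all 4282 clusters with at least 20 tags at each of their main sites, a test chosen after seeing the data. For Mcm3 the adjusted p was 0.054 for day 1 against day 0 and 0.0091 for day 2 against day 0, over the threshold of 0.001 that 2.55% and 3.46% of these clusters passed (0.911% for day 2 against day 1). None of the 9 replication genes with such sites passed it in any comparison. Besides Mcm3, sites of Rrm1 differed by 1 or more on the log2 scale, in day 2 against day 1, where the minor site had 19 and 8 tags.

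**Figure D3:**
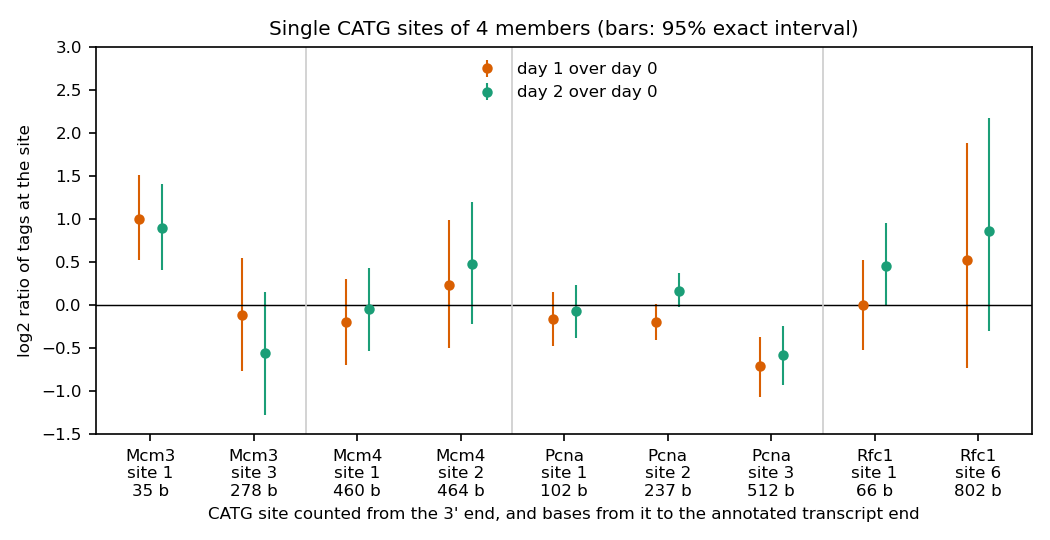
Log2 ratio of the tags at single CATG sites of Mcm3, Mcm4, Pcna and Rfc1 against day 0, with 95% exact intervals, and under each site its distance to the annotated transcript end. Mcm3 site 1 lies at 1.00 and 0.90 while its site 3 lies at -0.11 and -0.55, and the sites of Rfc1 have overlapping intervals.

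Cdc45 and the GINS subunits, the factors that complete the helicase, gave 0 calls in 5 genes. Gins4 had 147, 142 and 131 tags (52.25, 52.80 and 48.12 CPM), a ratio of 0.01 (-0.33 to 0.36) at day 1 and -0.12 (-0.47 to 0.23) at day 2. Cdc45 had 63, 58 and 38 tags (22.39, 21.57 and 13.96 CPM) and was lowest at day 2, at -0.68 (-1.30 to -0.08) at adjusted p = 0.081 in the exact binomial test. Gins1 had 63, 62 and 71 tags, close to level over the days. Gins2 with 38, 25 and 34 tags and Gins3 with 29, 17 and 23 were lowest at day 1, with intervals that include 0 on both days.

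The polymerase and primase genes gave no call in the 6 genes tested. Prim1, the catalytic primase subunit that lays the RNA primers, had 141, 171 and 143 tags (50.12, 63.58 and 52.53 CPM), at 0.34 (0.01 to 0.68) on day 1 and 0.07 (-0.28 to 0.41) on day 2. Pold1, the catalytic subunit of the lagging-strand polymerase delta, had 76, 78 and 97 tags (27.02, 29.00 and 35.63 CPM), at 0.10 (-0.37 to 0.58) and 0.40 (-0.05 to 0.85). Pold1 was highest at day 2 and its accessory subunit Pold2 lowest then. Pold2 had 24, 15 and 9 tags, a ratio of -1.32 (-2.66 to -0.21) at day 2, at adjusted p = 0.06 in the exact binomial test. The leading-strand polymerase epsilon was represented by its catalytic subunit Pole, with 30, 38 and 42 tags, and by Pole2, with 60, 75 and 74. Both had positive ratios on both days, from 0.35 to 0.53, with intervals that include 0. Pola1, the catalytic subunit of polymerase alpha, had 23, 14 and 19 tags.

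Pcna, the ring that holds the polymerases on DNA and a common marker of dividing cells, was lowest at day 1. It had 789, 616 and 747 tags (280.46, 229.04 and 274.38 CPM). The ratio was -0.29 (-0.45 to -0.14) at day 1, at adjusted p = 0.0015 in the exact binomial test, and -0.03 (-0.18 to 0.11) at day 2. The counts came mostly from 3 sites. Sites 1 and 2 of the 3' UTR gave -0.16 (-0.48 to 0.15) and -0.19 (-0.40 to 0.01) at day 1, and site 3, in the coding part of the last exon, gave -0.71 (-1.07 to -0.37) with 184, 107 and 119 tags. The site 3 tag also occurs in the pseudogene Pcna-ps2, and its difference from the other sites was not tested. With the tags that match Pcna alone the day 1 ratio was -0.18. Sites 2 and 3 are shown, both on the minus strand, because the first holds 57.0% of the tags and the second is the shared one.
Pcna site 2 tag (chr2:132249378-132249398): CATGaatgtttctgctttaca
Pcna site 3 tag (chr2:132249653-132249673): CATGggacacttaaagtatta

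The clamp loader subunits differed less between days than their counting error. Rfc1, the large subunit, had 86, 87 and 110 tags (30.57, 32.35 and 40.40 CPM), at 0.08 (-0.37 to 0.53) and 0.40 (-0.02 to 0.83). Rfc4 had 96, 98 and 92 tags and Rfc5 had 102, 110 and 121, and the ratios of both lay between -0.01 and 0.29.

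The single-strand binding protein RPA was read through Rpa2 and Rpa1, and both were lowest at day 2. Rpa2, the middle subunit, had 131, 122 and 93 tags (46.57, 45.36 and 34.16 CPM). Its ratio was -0.04 (-0.41 to 0.33) at day 1 and -0.44 (-0.85 to -0.05) at day 2, at adjusted p = 0.081 in the exact binomial test. Rpa1, the large subunit, had 13, 8 and 4 tags, and its ratio of -1.54 (-3.73 to 0.04) at day 2 rests on very few of them.

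Fen1, the nuclease that trims the flaps of lagging-strand fragments and also acts in base excision repair, was highest at day 1. It had 199, 305 and 240 tags (70.74, 113.40 and 88.16 CPM), so day 1 stood above both other days. The ratio was 0.68 (0.42 to 0.95) at day 1 and 0.32 (0.04 to 0.60) at day 2, and the day 1 value reached adjusted p = 3.2e-06 in the exact binomial test at 1.60-fold. Its tag lies in the coding sequence, 1411 bases from the annotated end, at the CATG nearest to that end.
Fen1 tag (chr19:10200522-10200542, minus strand): CATGgactgcctcacttttgg

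Against day 1, 0 of 34 genes were called higher at day 2 (1.80% of all clusters) and 0 lower (1.10%), with a median of 0.14 beside -0.02 for all clusters. At an unadjusted p under 0.05 there were 3 higher and 3 lower, 6 of 34 beside 29.3% of all clusters. By edgeR's exact test with the assumed variation 0 were called, again without a share of all clusters to set beside it. At the limit of 1.5-fold Dut was called higher (3.45% of all clusters) and none lower (3.11%), and Pcna and Mcm5 were at 0.26 (0.10 to 0.42) and 0.41 (0.15 to 0.67). Below day 1 with intervals short of 0 were Cdc45, at -0.62 (-1.26 to -0.01), Rpa2, at -0.41 (-0.81 to -0.01), and Fen1, at -0.36 (-0.61 to -0.11). Their adjusted p in the exact binomial test was 0.16, 0.16 and 0.023, beside 0.0074 for Pcna and 0.011 for Mcm5. All comparisons share libraries, so they are not independent of each other.

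Summed over the 34 genes, the tags made up 1.509‰, 1.434‰ and 1.713‰ of those in the tables, before TMM scaling. After it they stood at 1464.9 (1420.5 to 1510.3), 1524.5 (1478.1 to 1571.8) and 1659.2 (1611.1 to 1708.3) CPM. Day 1 lay below day 0 by the first measure and above it by the second, so its direction depends on the scaling. The summed ratio was 0.06 (-0.01 to 0.12) at day 1 and 0.18 (0.12 to 0.24) at day 2. By tags that match a single gene it was 0.13 and 0.26. By role the day 2 sums ranged from -0.52 (-0.91 to -0.14) for RPA to 0.38 (0.15 to 0.62) for licensing, where Cdt1 supplies most of the gain, and nucleotide supply stood at 0.33 (0.22 to 0.44). In whole skin, a change in the number of dividing cells and one in the transcript per cell cannot be told apart.

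Markers of the compartments that hold dividing cells moved in different directions over the same libraries. The 5 basal epidermis markers had a summed ratio of 0.06 (0.02 to 0.09) at day 1 and 0.22 (0.19 to 0.25) at day 2. Of them 0 were called (2.79% and 6.44% of all clusters were called either way). Krt5 held most of that sum, at 4711.65 of 5405.9 CPM at day 0. By gene, 2 of the 5 ratios were positive at day 1 and 4 at day 2. Trp63 lay below day 0 at both, at -0.17 (-0.29 to -0.06) and -0.13 (-0.25 to -0.02). Of the 6 hair matrix markers 5 were tested. Their sum was 957.3, 918.8 and 545.1 CPM. Of these markers 1 was called lower at day 1 (1.35% of all clusters) and 3 at day 2 (3.03%), namely Shh, Msx2 and Wnt10b. The day 1 sum joins opposite shifts, with 4 of the 5 ratios negative and a median of -0.39. Dlx3 was the positive one, with 768, 1111 and 596 tags, at 0.60 (0.46 to 0.73) at day 1. The sixth marker, Lef1, was listed only at day 0 with 2 tags. The 6 macrophage markers listed of 8 summed to 193.0, 182.6 and 408.5 CPM, and the 7 skeletal muscle markers to 8057.3, 12406.1 and 17207.9. Fibroblast markers stood at 2949.6, 1875.8 and 3268.4 CPM. Their day 2 sum joins opposite shifts against day 0, with 4 ratios positive (Lum at 1.16) and 2 negative (Col1a2 at -0.45). The 4 erythroid markers tested of 7 stood at 1808.9, 1619.3 and 140.3 CPM, with Slc4a1 below the minimum at 2, 0 and 2 tags. The T cell markers tested, Cd3d and Trac, had 17, 18 and 19 tags together, and Cd4, below the minimum, had 5, 0 and 0. The part of these shifts in the replication values was not tested. Of 20 mitosis genes, a part of the cell cycle that follows replication, 15 were tested. In the 3 comparisons 0 were called, beside 2.79%, 6.44% and 2.90% of all clusters. Their medians were -0.05 and 0.06 and their summed ratios 0.08 (-0.00 to 0.16) and 0.14 (0.07 to 0.22). Single genes went both ways, with 7 ratios positive and 8 negative at day 1. Plk1 was then at 0.85 (0.42 to 1.30) and Nusap1 at -0.92 (-1.34 to -0.52).

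**Figure D4:**
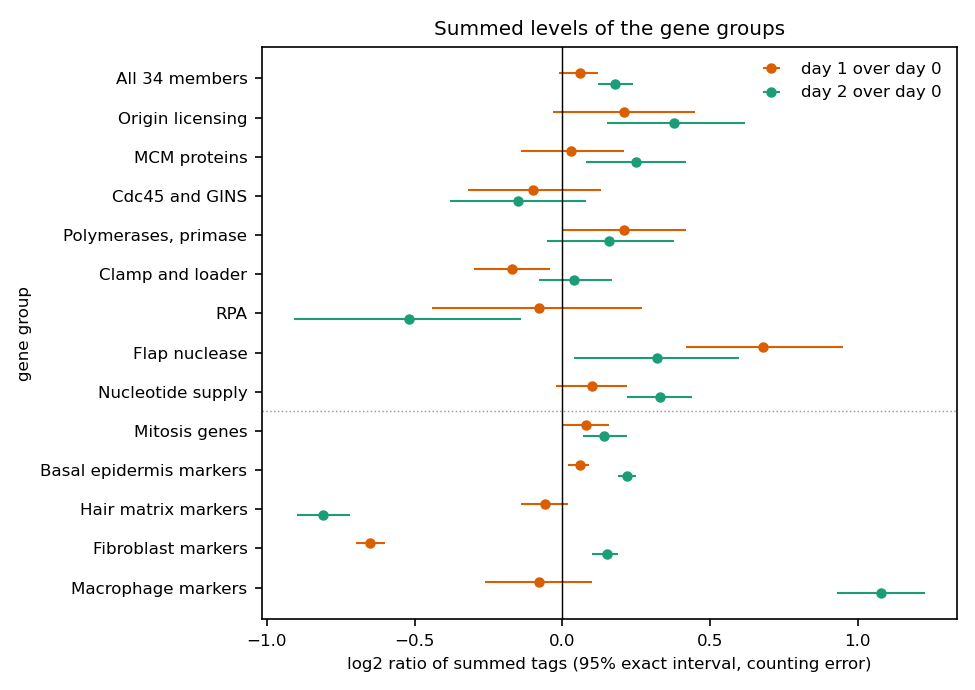
Log2 ratio of summed tags at day 1 and day 2 against day 0 for all 34 genes, for each role, and below the dotted line for mitosis genes and cell type markers, with 95% exact intervals for counting error. The replication sum lies at 0.06 and 0.18, the hair matrix markers at -0.06 and -0.81, and RPA is the role furthest below day 0 at day 2 (-0.52).

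Other genes that act at origins and forks included calls in both directions at day 2. Of 36 named 29 were tested, with 0 called at day 1 and 1 higher and 3 lower at day 2 (2.79% and 6.44% of all clusters were called either way, and 2.90% in day 2 over day 1, where the list had 0). Timeless, which holds the fork together when it slows, rose from 40 and 39 tags to 82, at 1.07 (0.52 to 1.67) at adjusted p = 6.1e-04 in the exact binomial test. The 3 that fell were Chaf1a, Dscc1 and Dnmt1. Chaf1a, the large subunit of the chromatin assembly factor, had 77, 55 and 29 tags, at -1.35 (-2.03 to -0.73). Dscc1, part of an alternative clamp loader used in sister chromatid cohesion, had 52, 19 and 14, at -1.81 (-2.81 to -0.97), and Dnmt1, which copies DNA methylation to the new strand, had 94, 52 and 44, at -1.04 (-1.60 to -0.52). At the 3'-most site alone Timeless and Dnmt1 were called. With the assumed variation 0 of the list were, a count without a share of all clusters beside it. The genes of this list with the most tags were not called, among them Top1, a topoisomerase, at 0.10, and Pole3, a small subunit of polymerase epsilon, at -0.06, with Rnaseh2a, which removes RNA from DNA, at -0.42. Gmnn, the inhibitor of Cdt1, had 112, 74 and 107 tags and was not called, at -0.53 (-0.98 to -0.10) and -0.02 (-0.41 to 0.38).

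Further genes of nucleotide metabolism were mostly below day 0. Of 28 named 23 were tested, and 16 had negative ratios at day 1 and 17 at day 2. Of all 13812 clusters 7064 and 6853 were negative. The medians of the list were -0.15 and -0.17, and many of the single intervals include 0. At day 1, 0 were called higher (1.44% of all clusters) and 1 lower (1.35%), and at day 2, 1 was called higher (3.41%) and 3 lower (3.03%). Ctps, a synthase that makes CTP from UTP, had 1228, 1170 and 493 tags, and fell by 1.27 on the log2 scale at day 2 against day 0 and fell by 1.26 against day 1. Dguok, the mitochondrial deoxyguanosine kinase, had 146, 65 and 45 tags, with ratios of -1.10 (-1.55 to -0.67) and -1.64 (-2.17 to -1.16), both called. Nme2, a nucleoside diphosphate kinase whose tags also occur in the annotated gene Gm20390, had 3474, 1931 and 1614 tags, and its -1.06 at day 2 was called, a call lost with tags that match 1 gene. Samhd1, which breaks down deoxynucleotides and is abundant in myeloid cells, had 107, 148 and 216 tags. It rose by 1.06 (0.72 to 1.41) at day 2, in the library with the highest sum of macrophage markers. Of the 6 macrophage markers tested 5 had positive ratios then, while Adgre1 was at -0.17 (-0.65 to 0.30). The part of the macrophage shift in the Samhd1 value was not tested. At the limit of 1.5-fold 3, 5 and 3 of this list were called in day 1 over day 0, day 2 over day 0 and day 2 over day 1 (7.78%, 11.9% and 6.56% of all clusters). Paics of purine synthesis was not called, at -0.24 and -0.11, and Rrm2b, the ribonucleotide reductase subunit induced by p53, had 51, 49 and 33 tags and was not called, at 0.01 (-0.59 to 0.60) and -0.57 (-1.26 to 0.08). Rrm2, whose protein takes the same place in the enzyme, was called higher at day 2, and the difference between these genes was not tested.

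Of 21 regulators of S phase 16 were tested and E2f2 was the gene called, 1 of 16 at day 2 beside 6.44% of all clusters and 1 of 16 in day 2 over day 1 beside 2.90%. E2f2, a transcription factor of the E2F family that activates S phase genes, had 124, 119 and 51 tags, at 0.01 (-0.37 to 0.38) on day 1 and -1.23 (-1.73 to -0.75) on day 2, and was also called lower at day 2 against day 1. The call at day 2 was lost with the assumed variation. E2f1 had 16, 12 and 20 tags. The cyclin Ccna2 had 381, 312 and 331 tags at -0.22 and -0.16, Rbl2 of the retinoblastoma family stood at -0.05 and -0.02, and the kinase Cdk2 at -0.04 and -0.56, none of them called.

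Promoters were searched for the E2F consensus motif as the words TTTCCCGC, TTTCGCGC, TTTGCCGC and TTTGGCGC on both strands, in the RefSeq window from 250 bases before to 50 after each start (GRCm38.p6). A window was at hand for 33 of the 40 genes, and 13 of them (39.4%) held a match, beside 2.6% of 27025 genes in all. Counted by promoter it was 13 of 38 (34.2%) beside 2.3% of 32851. They were Orc1, Cdc6, Cdt1, Mcm3, Mcm5, Mcm6, Mcm7, Gins3, Pola1, Pole2, Pold1, Rfc3 and Lig1. The 11 of these that were tested had medians of -0.24, 0.33 and 0.41 in day 1 over day 0, day 2 over day 0 and day 2 over day 1, and the 18 without a match had 0.07, 0.18 and 0.03. Cdt1, Mcm3, Mcm5 and Orc1 are shown because they cover the licensing factors and the MCM genes described above. For each, 1 matched word is in capitals, read in the direction of the gene. The promoters of Mcm3 and Mcm5 held 2 matches each, and the unmarked one of Mcm5 overlaps the capitals.
Cdt1 (chr8:122568035-122568064, plus strand): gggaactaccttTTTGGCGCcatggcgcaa
Mcm3 (chr1:20820275-20820304, minus strand): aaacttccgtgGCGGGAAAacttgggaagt
Mcm5 (chr8:75109345-75109374, plus strand): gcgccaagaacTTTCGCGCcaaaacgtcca
Orc1 (chr4:108579416-108579445, plus strand): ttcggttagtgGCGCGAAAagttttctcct

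The position of the tags bears on what each count measures. Of the tags of the 34 genes 50.6% were at the 3'-most site by the deposited site numbers, beside 70.1% over all clusters tested, and the main tag was at that site in 17 of 34 genes. In 22 genes a single tag held at least 80% of the count, so the value of most genes rests on 1 sequence. By GENCODE annotation the main tag lay in the 3' UTR in 24 genes and in coding sequence in 10.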

How the data were processed

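Per the labels' protocols, polyadenylated RNA of whole skin was turned into cDNA, cut at CATG by NlaIII and released by MmeI as 21-base tags, which were amplified and sequenced. Per the file headers, each deposited table gives a raw count of tags per UniGene cluster and the copy number of each tag at its numbered CATG site. The deposited TPM values are counts per 1000000 tags the authors kept, of which the tables hold 45.3%, 47.1% and 46.5%. No label or header names the aligner or the build.

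Tags were matched exactly to GENCODE M21 transcripts (GRCm38), and a cluster took the gene holding at least 80% of its matched and 50% of all its tags. Of 20595 clusters 15344 were named so, 499 by tags shared with other genes and 194 by RefSeq accession. Site numbers, as deposited, count from the 3' end of the cluster's sequence. Counts were scaled by TMM (edgeR 4.0.16, factors 1.0298, 0.9405 and 1.0325) and compared by the exact binomial test (scipy 1.17.1). The test was also run on simulated counts with counting error only, which cannot show how calls hold between animals. There it called 28, 21 and 28 of 50 changes of 2.5-fold in the 3 comparisons. A gene left uncalled may thus differ. With 1 library per group edgeR's quasi-likelihood test could not be used. Tags carry no molecular identifier, so intervals leave PCR duplication out. Described with the most values are called genes and, per role, the gene with the most tags and the one with the largest ratio at 20 CPM or more. Of each further list the called genes and the 3 with the most tags are named, and any other gene named there was chosen after its values were seen. The genes and lists were chosen with earlier results of these data known. Alternatives were other scalings, filters, tags, call rules and pseudocounts, and edgeR's exact test with an assumed variation of 0.2 at an adjusted p of 0.05.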

Additional observations from a re-analysis of the deposited data

How the results depend on the processing

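No paired analysis was possible because each group holds 1 library, and no library could be left out. Over the alternatives the median of the replication genes tested ranged from -0.09 to 0.04 in day 1 over day 0, from 0.16 to 0.24 in day 2 over day 0 and from 0.09 (3'-most site, 21 genes) to 0.26 (all kept tags, 34 genes) in day 2 over day 1. Of 156 alternative values of the 21 main results (counts of calls, medians and sums), 28 were classed as moved and 128 as the same. For 14 single genes in 3 comparisons 282 alternative values were computed, without the call rules of 1.5-fold and of the assumed variation. Of these single-gene values 278 stayed on the same side of the call threshold and within counting error. Values near 0 changed sign among them: Gins4 at day 1 went from 0.01 to -0.06 and -0.05, Rfc1 at day 1 from 0.08 to -0.00, Orc6 at day 2 from -0.03 to 0.01 and Pcna at day 2 from -0.03 to 0.01 and 0.10. With the assumed variation of 0.2, 0 replication, 0 origin and fork and 0 regulator genes were called in any comparison, and of the further nucleotide genes 0, 1 (Dguok) and 0 in day 1 over day 0, day 2 over day 0 and day 2 over day 1. The share of all clusters called in that setting is not given here, so these counts show nothing particular to the lists. At 1.5-fold, 3, 3 and 1 replication genes were called higher, 3 further nucleotide genes were called in day 1 over day 0 and 3 in day 2 over day 1, and 1 origin and fork gene (Pclaf) in day 1 over day 0. At the 3'-most site, where 21 replication genes were tested and Rrm2 was not among them, 1 (Mcm3) was called higher at day 1 and 0 at day 2. Dguok lost its day 2 call there. Also there, 0 further nucleotide genes were called at day 1, 2 origin and fork genes in day 2 over day 0 and 1 (Timeless) in day 2 over day 1, and 1 regulator (Cdkn1a) at day 1. DESeq2 size factors called 1 gene (Rrm2) higher at day 1. Scaling by all kept tags moved the median of all clusters from -0.02 to 0.10 in day 2 over day 1, called 1 origin and fork gene in day 1 over day 0 (Dscc1) and 1 in day 2 over day 1 (Timeless), lost the day 2 call of Dnmt1, and gave summed replication ratios of -0.02 in day 1 over day 0 and 0.24 in day 2 over day 1. The summed ratios at days 1 and 2 over day 0 were 0.13 and 0.27 at the 3'-most site, and 0.13 and 0.26 by tags matching 1 gene, where Nme2 lost its call and Uhrf1 was called at day 2. Beyond the tags counted in each setting, the cause was not tested. Depth limits the least counted genes, such as Mcm2, whose interval at day 2 over day 0 ran from -0.64 to 2.41.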
